A study of Homo sapiens with 6 samples.

Results

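The genes described here encode ion channel subunits: 23 of the 1630 genes in a deposited table of U87MG glioblastoma cells. They were taken by symbol, as every gene whose name opens with KCN, SCN, CACN, TRPM, TRPV, TRPC, CLCN, CLIC, ANO, GABR, GRIA, GRIK, GRIN, GRID, CHRN, P2RX, ASIC, HCN or AQP followed by a letter or digit and with no hyphen. U87MG is an established human glioblastoma line. RNA was sequenced from 3 libraries that carried a control short hairpin RNA (shControl, genotype labelled NC) and 3 that carried a hairpin against CREPT (shCREPT, genotype labelled CREPT Knockdown). CREPT is the product of RPRD1B, a protein that docks on the tail of the largest RNA polymerase II subunit. Both groups are hairpin-carrying derivatives of the same line. The number of hairpins or clones, the time after transduction and whether libraries came from separate cultures are not stated by the labels, so p-values reflect the spread among libraries that may be technical repeats.

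Ion channels are membrane proteins that let selected ions pass down their gradients when voltage, a ligand, calcium or stretch opens them. A pore-forming alpha subunit, or a ring of subunits, makes the conducting path, and auxiliary subunits set its trafficking and gating. Glioma cells use calcium-activated potassium channels and chloride channels for the volume changes of migration, and calcium-permeable channels for calcium signals. Astrocytes are known for inwardly rectifying potassium channels that buffer extracellular potassium.

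The table holds only genes that the authors marked as significant, with an absolute log2 fold of at least 1.0009 and an adjusted p-value of at most 0.0497 in the authors' deposited table. Every channel gene in it had therefore been picked for a difference between these same groups, and the tests below describe a selected table. RPRD1B has 0 rows, so the knockdown was not checked here. Values are normalized expression values, hereafter values, on a linear scale with an unknown depth. They summed to between 31893.69 and 33330.80 per library over the listed genes. No source used here says whether they are scaled by gene length, so levels are compared between libraries and not between genes. Of 10 markers fixed for the labelled astrocyte and glioma lineage, 3 have a row (GFAP, S100B and SLC1A3) and their summed value ran from 498.3 to 528.5 in shControl and from 72.5 to 88.9 in shCREPT, with S100B at 0 in 1 shCREPT library. The summed markers of other cell types that have a row were also lower in shCREPT for neurons (1 of 9, NEFL, 251.0 to 276.0 against 56.4 to 58.3), the oligodendrocyte lineage (2 of 6, 52.1 to 57.4 against 9.1 to 10.5), endothelium (2 of 6, 43.3 to 45.3 against 11.6 to 13.7) and fibroblasts (2 of 7, 1084.6 to 1099.2 against 431.6 to 492.4, with COL3A1 at 0 in 1 shCREPT library). The epithelial sum was higher (2 of 6, 5.6 to 7.1 against 20.8 to 23.8), with CLDN4 marked up and KRT19 down in the authors' deposited table. Myeloid and T cell markers (7 and 6 fixed) have no row. Each sum is weighted to its highest gene, and S100B had a mean of only 2.68 in shControl. The log2 ratio of group means was −3.25 for GFAP, −1.10 for SLC1A3 and −4.90 for S100B. All libraries are labelled as the U87MG line, so these sums describe genes and do not count cell types. A smaller share of cells expressing a gene and less RNA per cell cannot be told apart in such bulk samples. The part of these markers' shift in the channel results was not tested.

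In shCREPT cells the voltage-gated calcium channel subunits CACNA1C and CACNB2, the cation channels TRPC4 and TRPM4, the potassium channel genes KCNE4, KCNMA1 and KCNJ8, the chloride channel family gene CLIC2 and the ATP receptor gene P2RX6 fell, while the cation channel TRPM2, the calcium channel subunit CACNG4 and the potassium channel KCNN2 rose. After a median-of-ratios rescaling, which takes its factors from these selected genes, TRPM4, KCNMA1, KCNJ8 and P2RX6 kept their sign and lost their call. The largest fall was 3.53-fold, in KCNE4, and the largest rise was in TRPM2, from a mean of 0.0767 to 3.19. Of the 23 channel genes, 16 were marked down (69.6%) and 7 up in the authors' deposited table, where 59.7% of all rows were down and 40.3% up. The 12 channel genes that reached a value of 1 in 3 or more libraries were tested, and 9 were called lower and 3 higher with limma on log2(value + 1) at a Benjamini-Hochberg adjusted p below 0.05. That rule called 97.9% of all rows tested, 57.3% lower and 40.6% higher, so a call in itself sets no channel gene apart.

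**Figure D1:**
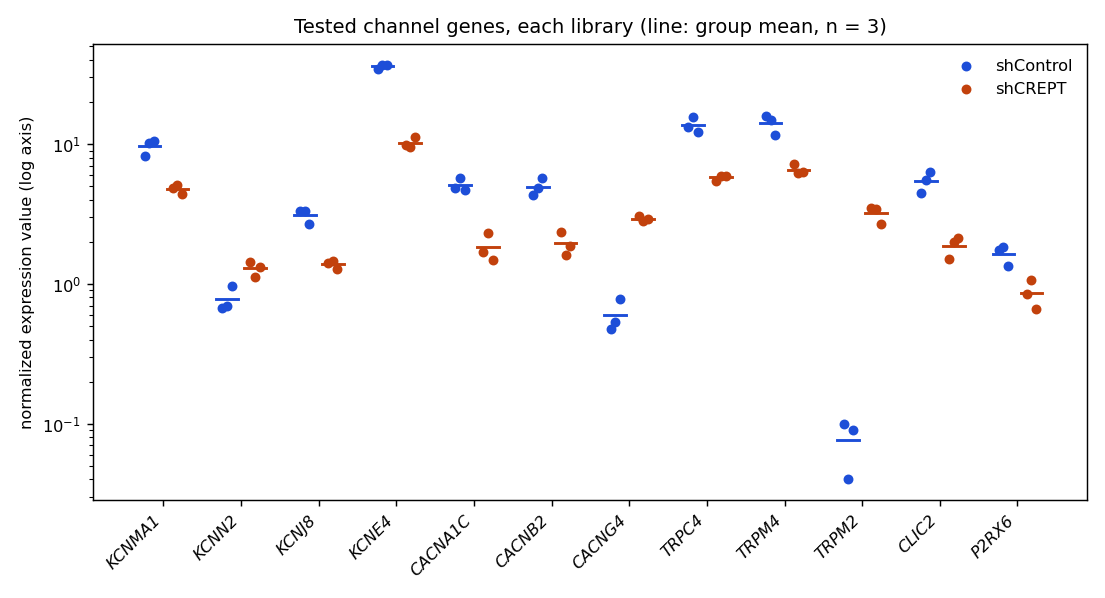
Normalized expression value (log axis) of the 12 tested channel genes in each shControl and shCREPT library, with a line at each group mean (n = 3). In every gene shown the 3 libraries of one group lie above the 3 of the other, with TRPM2 the widest apart (0.04 to 0.10 against 2.69 to 3.47).

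The median log2 change of the 12 tested channel genes was −0.93, beside −0.76 over all 1184 rows tested, and their median absolute change was 1.06 beside 1.10. In all 12 the libraries of the groups did not overlap, as in 96.8% of the rows tested. Coefficients of variation within a group ran from 3.48 to 41.9%. The scale of the libraries bears on the falls: a median-of-ratios rescaling raises every shCREPT value against shControl by 0.89 (log2) before the pseudocount. Its factors came from the rows tested, which were all picked for a difference, with 57.3% called lower before rescaling. The method takes most genes as unchanged, which does not hold in such a list. A call lost under it therefore cannot decide whether a gene fell. Under it the 9 falls moved from between −0.51 and −1.73 to between −0.03 and −0.89 on the log2(value + 1) scale. Of these falls 5 were still called, and no tested channel gene changed sign. Apart from KCNE4, those 5 came nearer the threshold: CLIC2 (−0.49, limma adjusted p = 0.0185), CACNA1C (−0.45, limma adjusted p = 0.0257), TRPC4 (−0.32, limma adjusted p = 0.0338) and CACNB2 (−0.35, limma adjusted p = 0.0463). The rescaling called 72.9% of all rows tested and moved the median over them to −0.12.

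**Figure D2:**
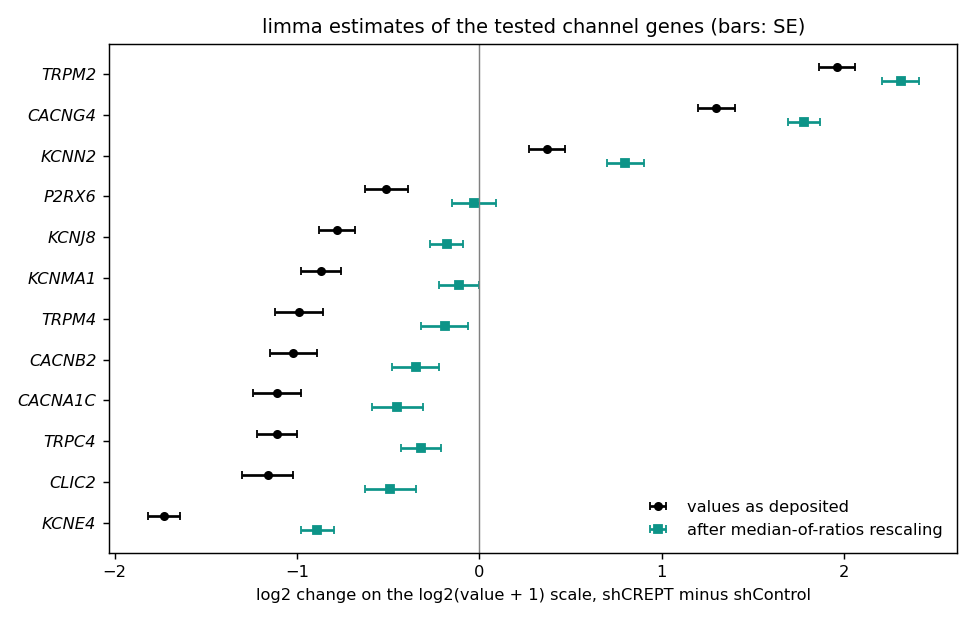
Log2 change on the log2(value + 1) scale (shCREPT minus shControl, horizontal axis) of the 12 tested channel genes, with bars of 1 SE from limma, for the values as deposited (circles) and after median-of-ratios rescaling (squares). Rescaling moves every gene to the right: the falls shrink to between −0.03 and −0.89 and the rises grow, TRPM2 from 1.96 to 2.31.

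Voltage-gated calcium channels gave 4 of 26 genes of that family a row. CACNA1C encodes the pore-forming subunit of an L-type channel, which opens on strong depolarization, and CACNB2 a beta subunit that carries such pores to the membrane. CACNA1C (chromosome 12, 1970786 to 2697950, plus strand, GRCh38) had values of 4.82, 5.76 and 4.69 in shControl and 1.70, 2.32 and 1.49 in shCREPT. All 3 shCREPT libraries were below all 3 controls. Its mean went from 5.09 ± 0.584 to 1.84 ± 0.432 (SD, n = 3), 2.77-fold lower, with a log2 change of −1.11 ± 0.13 (SE, by limma with adjusted p = 0.000219). CACNB2 (chromosome 10, 18140677 to 18543557, plus strand) had 4.34, 4.82 and 5.70 in shControl against 2.35, 1.62 and 1.87 in shCREPT. The groups were again apart, with a 2.54-fold lower mean and a log2 change of −1.02 ± 0.13 (SE, by limma with adjusted p = 0.000295).

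The other calcium channel genes with a row were higher in shCREPT. CACNG4 encodes a transmembrane gamma subunit that also serves as a partner of AMPA-type glutamate receptors. CACNG4 (chromosome 17, 66964910 to 67033398, plus strand) had values of 0.48, 0.53 and 0.78 in shControl and 3.08, 2.83 and 2.89 in shCREPT. The 3 shCREPT libraries lay close together and far above the controls, a 4.92-fold higher mean and a log2 change of 1.30 ± 0.10 (SE, by limma with adjusted p = 2.71e-05). CACNA1H encodes the pore of a T-type channel, which opens at low voltage. Its values were 0.16, 0.12 and 0.23 in shControl and 0.73, 0.91 and 0.67 in shCREPT, too low to be tested under the filter. The ratio of its means was 4.53, and with no filter on low values it was called higher (log2 change of 0.60, limma adjusted p = 0.000777).

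The sequences before the start sites of 4 channel genes are shown because CACNA1C and CACNB2, which encode partner subunits, fell together, KCNMA1 fell, and TRPM2 had the largest rise. Each run is the 250 bases before the start that RefSeq lists (GRCh38.p14), 5′ to 3′ on the gene's strand, and capitals mark any GC box, CCAAT box, TATA box, MYC-type E-box or AP-1 site on either strand, in the letters given in the next paragraph.
CACNA1C, chr12:2052737-2052986, plus strand: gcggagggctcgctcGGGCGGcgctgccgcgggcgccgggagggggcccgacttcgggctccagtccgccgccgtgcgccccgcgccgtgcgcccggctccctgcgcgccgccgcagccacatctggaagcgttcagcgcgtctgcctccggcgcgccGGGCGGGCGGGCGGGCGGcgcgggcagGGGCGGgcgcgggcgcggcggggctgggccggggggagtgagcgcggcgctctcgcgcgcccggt
CACNB2, chr10:18140174-18140423, plus strand: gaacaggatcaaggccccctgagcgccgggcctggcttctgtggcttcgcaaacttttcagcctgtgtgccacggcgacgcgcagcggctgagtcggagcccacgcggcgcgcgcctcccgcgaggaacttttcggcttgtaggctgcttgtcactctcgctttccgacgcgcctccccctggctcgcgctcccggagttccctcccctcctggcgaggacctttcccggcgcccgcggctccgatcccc
KCNMA1, chr10:77637809-77638058, minus strand: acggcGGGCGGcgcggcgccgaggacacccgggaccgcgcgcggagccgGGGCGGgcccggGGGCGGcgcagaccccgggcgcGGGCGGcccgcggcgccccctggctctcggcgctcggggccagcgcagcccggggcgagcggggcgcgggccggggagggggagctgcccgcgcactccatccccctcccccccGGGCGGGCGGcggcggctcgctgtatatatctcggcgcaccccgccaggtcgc
TRPM2, chr21:44353371-44353620, plus strand: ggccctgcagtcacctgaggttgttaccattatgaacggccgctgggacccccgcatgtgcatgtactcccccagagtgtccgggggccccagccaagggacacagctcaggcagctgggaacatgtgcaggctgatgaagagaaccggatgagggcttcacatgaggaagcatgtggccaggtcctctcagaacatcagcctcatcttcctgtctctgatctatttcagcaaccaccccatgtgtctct
The CACNA1C and KCNMA1 runs each hold 6 GC boxes, some of which overlap each other, at 85.6% G and C. The CACNB2 run holds none of the motifs at 69.6% G and C, and neither does the TRPM2 run at 57.6%, with 30 and 5 CG pairs. The RefSeq start of TRPM2 lies 3458 bases inside the GENCODE gene and that of CACNA1C 82201 bases inside it, so these windows need not be where transcription began in U87MG cells.

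RefSeq promoters were matched for 15 of the 23 channel genes. The GC box, searched as GGGCGG, stood in 8 of the 15 (53.3%, against 42.6% of all 35116 promoters). The AP-1 site, searched as TGANTCA, stood in 3 (20%, against 6.57% of all promoters), namely CLIC2, KCNJ16 and SCN1A. The CCAAT box, searched as those letters, stood in KCND1 and KCNN2 (13.3%, against 32% of all promoters). The TATA box, searched as TATAAA, stood in CLIC2 alone (6.67%, against 10.7% of all promoters). The MYC-type E-box, searched as CACGTG, stood in 0, against 6.34% of all promoters. Of the 15 matched genes, 12 were marked down in the authors' deposited table, the 3 with an AP-1 match among them. A match describes the letters only. The channel genes are long: their median gene length was 82.2 kb, beside 50.3 kb for the 274 protein-coding genes of GENCODE whose symbols fit the same prefixes and 33.6 kb for 1221 listed protein-coding genes. Those marked down had a median of 114 kb (n = 16) and those marked up 68.7 kb (n = 7), while the listed protein-coding genes had 33.9 and 33.4 kb.

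The transient receptor potential channels are cation channels opened by calcium, lipids or oxidative signals. Of 22 genes with TRPC, TRPV or TRPM symbols, 3 have a row. A further channel of this type, TRPA1, falls outside these prefixes. It also has a row, marked up in the authors' deposited table, and was too low to be tested. TRPC4 forms a calcium-permeable channel downstream of phospholipase C. TRPC4 (chromosome 13, 37636636 to 37870425, minus strand) had values of 13.26, 15.68 and 12.23 in shControl and 5.49, 5.93 and 5.94 in shCREPT. The groups were apart, at 13.7 ± 1.77 and 5.79 ± 0.257 (SD, n = 3), a 2.37-fold lower mean and a log2 change of −1.11 ± 0.11 (SE, by limma with adjusted p = 7.54e-05). TRPM4 is opened by intracellular calcium and passes sodium and potassium but not calcium. TRPM4 (chromosome 19, 49157741 to 49211836, plus strand) had 15.99, 14.80 and 11.65 in shControl and 7.22, 6.18 and 6.33 in shCREPT. Its mean was 2.15-fold lower in shCREPT, with a log2 change of −0.99 ± 0.13 (SE, by limma with adjusted p = 0.000342), and this call was lost after rescaling (log2 change of −0.19, limma adjusted p = 0.213).

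TRPM2 went the other way. It encodes a calcium-permeable channel opened by ADP-ribose and oxidative stress. TRPM2 (chromosome 21, 44350163 to 44443081, plus strand) had values of 0.10, 0.04 and 0.09 in shControl and 3.47, 3.42 and 2.69 in shCREPT. Control values near 0 stand beside 3 shCREPT values within 2.69 to 3.47, a log2 change of 1.96 ± 0.10 (SE, by limma with adjusted p = 9.18e-06) that became 4.23 with a pseudocount of 0.1. The ratio of the means was 41.7, and the fold in the authors' deposited table was 19.8. The antisense gene TRPM2-AS (chromosome 21, 44414588 to 44425272, minus strand), which lies within TRPM2, also has a row and was chosen after its values were seen. It was listed at 0 in all 3 shControl libraries and at 1.12, 3.10 and 1.08 in shCREPT (log2 change of 1.39 ± 0.26 SE, limma adjusted p = 0.00189). The labels do not say whether the libraries keep strand, so reads of TRPM2 and TRPM2-AS cannot be told apart here. In all, 16 of the 23 channel genes overlap an annotated gene on the opposite strand, and TRPM2 is the 1 whose overlapping gene has a row.

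Potassium channel genes made up 9 of the 23, with 7 marked down and 2 up in the authors' deposited table, out of 97 GENCODE genes with KCN symbols. KCNE4 is a single-pass beta subunit that binds voltage-gated potassium channels and mostly inhibits them. KCNE4 (chromosome 2, 223051814 to 223198399, plus strand) had values of 34.65, 36.97 and 36.64 in shControl and 9.85, 9.51 and 11.27 in shCREPT. Both groups were tight, at 36.1 ± 1.26 and 10.2 ± 0.934 (SD, n = 3), a 3.53-fold lower mean. Its log2 change was −1.73 ± 0.09 (SE, by limma with adjusted p = 9.44e-06) and −0.89 after rescaling (limma adjusted p = 0.00012). The related beta subunit KCNE1, a partner of the cardiac delayed rectifier, had 0.50, 0.93 and 0.81 in shControl and 0.09, 0.17 and 0.19 in shCREPT, too low to be tested under the filter. KCNE1 (chromosome 21, 34446688 to 34512275, minus strand) lies next to RCAN1 (34513142 to 34615142) on the same strand. RCAN1 went from a mean of 588 in shControl to 60.2 in shCREPT, and any part of its reads in the KCNE1 values was not tested.

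The calcium-activated potassium channels were split. KCNMA1 encodes the pore of the large-conductance BK channel, opened by voltage and calcium together and known for its expression in gliomas. KCNMA1 (chromosome 10, 76869601 to 77638369, minus strand) had values of 8.22, 10.24 and 10.47 in shControl and 4.84, 5.10 and 4.41 in shCREPT. Its mean went from 9.64 ± 1.24 to 4.78 ± 0.348 (SD, n = 3), 2.02-fold lower, with a log2 change of −0.87 ± 0.11 (SE, by limma with adjusted p = 0.000295). This call was lost after rescaling (−0.11, limma adjusted p = 0.416). KCNN2 encodes a small-conductance channel gated by calcium through calmodulin. Its values were 0.67, 0.70 and 0.97 in shControl and 1.43, 1.12 and 1.33 in shCREPT, a 1.66-fold higher mean with a log2 change of 0.37 ± 0.10 (SE, by limma with adjusted p = 0.0111), the smallest change among the tested channel genes.

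Of the inwardly rectifying channels, which pass potassium more easily into the cell than out, 3 of 16 have a row. KCNJ8, a pore subunit of ATP-sensitive potassium channels, had values of 3.30, 3.31 and 2.68 in shControl and 1.41, 1.46 and 1.28 in shCREPT. The mean was 2.24-fold lower, with a log2 change of −0.78 ± 0.10 (SE, by limma with adjusted p = 0.000228), and the call was lost after rescaling (−0.18, limma adjusted p = 0.118). KCNJ16 was listed at 0 in all 3 shCREPT libraries and at 0.06, 0.10 and 0.09 in shControl. KCNJ12 had 0.03, 0.06 and 0.03 in shControl and 0.18, 0.40 and 0.22 in shCREPT, and its near-identical copy KCNJ18 has no row, and how the authors' counting split reads between this pair is uncertain. 

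KCND1, an A-type channel pore, is the 1 channel gene whose groups overlapped. Its values were 0.39, 0.30 and 0.62 in shControl and 0.13, 0.10 and 1.04 in shCREPT. shCREPT replicate 3 was the highest of the 6 libraries and the other shCREPT libraries the lowest. The ratio of the means was 0.969, while the fold in the authors' deposited table was 0.239. Without shCREPT replicate 3 the ratio of the means was 0.263.

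CLIC2 and ANO1 are the genes with a row among 26 with CLCN, CLIC or ANO symbols. CLIC2 belongs to the intracellular chloride channel family, whose members also exist as soluble proteins and whose channel role is debated. CLIC2 (chromosome X, 155276211 to 155334657, minus strand) had values of 4.50, 5.51 and 6.33 in shControl and 1.51, 2.0 and 2.13 in shCREPT. The groups were apart, at 5.45 ± 0.917 and 1.88 ± 0.327 (SD, n = 3), a 2.90-fold lower mean and a log2 change of −1.16 ± 0.14 (SE, by limma with adjusted p = 0.000218). ANO1, a calcium-activated chloride channel, had 0.14, 0.07 and 0.18 in shControl and 0.20, 0.19 and 0.33 in shCREPT, where the highest control lay just under the lowest shCREPT library. The ratio of its means was 1.85 beside a fold of 5.27 in the authors' deposited table.

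The ligand-gated cation channels gave 3 of 43 genes a row, all marked down in the authors' deposited table, as were 59.7% of all its rows. P2RX6 encodes a subunit of ATP-gated channels. Its values were 1.76, 1.83 and 1.35 in shControl and 0.85, 1.07 and 0.66 in shCREPT, a 1.91-fold lower mean with a log2 change of −0.51 ± 0.12 (SE, by limma with adjusted p = 0.00524). This call was lost after rescaling (−0.03, limma adjusted p = 0.818) and after quantile normalization (−0.25, limma adjusted p = 0.0935), a scaling under which 94.4% of all rows tested were called. GRIN2A, an NMDA receptor subunit, had 0.45, 0.06 and 0.10 in shControl and 0.01, 0.01 and 0.04 in shCREPT. The ratio of its means was 0.0984. Without shControl replicate 1, the highest library, the ratio was 0.25, and without shCREPT replicate 3 it was 0.0492.

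Of 24 genes with SCN or ASIC symbols, 2 have a row. SCN1A, a neuronal voltage-gated sodium pore, had values of 0.24, 0.50 and 0.92 in shControl and 0.08, 0.02 and 0.03 in shCREPT. The 3 controls were widely spread but all above shCREPT, with a ratio of the means of 0.0783, or 0.0452 without shCREPT replicate 1. SCN3B, a beta subunit of such channels, had 0.05, 0.03 and 0.05 in shControl and 0.33, 0.07 and 0.16 in shCREPT. Its mean was 4.31-fold higher in shCREPT, or 2.65-fold without shCREPT replicate 1. No gene of the K2P background potassium channels (15 in GENCODE), the hyperpolarization-activated channels (4), the GABA-A receptor subunits (19) or the aquaporins (13) has a row. A missing row says only that the gene is not in the table of selected genes.

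**Figure D3:**
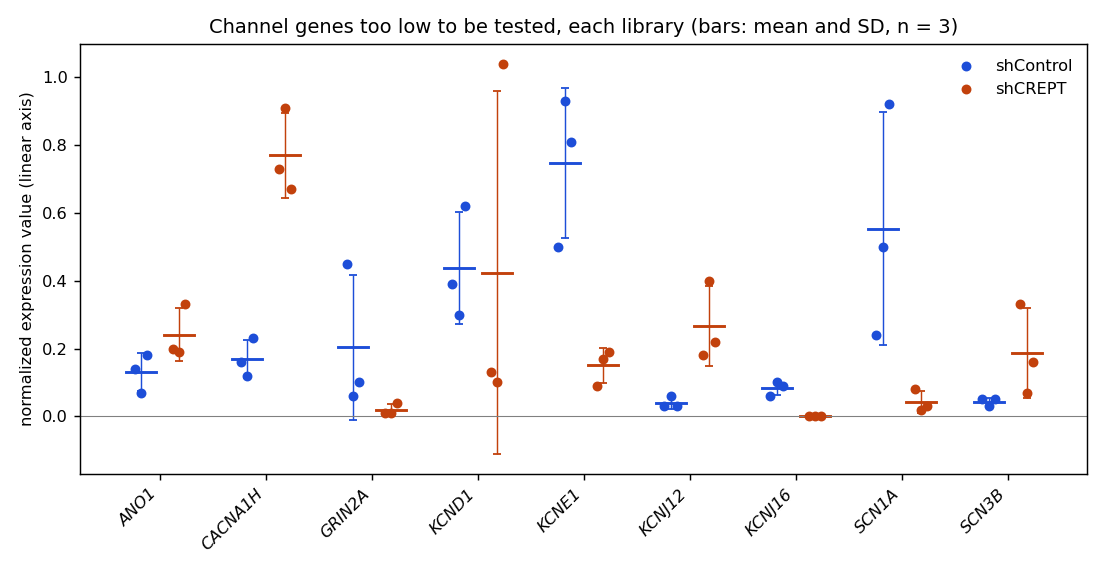
Normalized expression value (linear axis) of 9 of the 11 channel genes too low to be tested, in each shControl and shCREPT library, with group means and SD (n = 3). KCND1 overlaps between groups through 1 shCREPT library at 1.04, and KCNJ16 is at 0 in all shCREPT libraries.

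Across the 11 channel genes too low to be tested, no value in any library exceeded 1.04, and the groups did not overlap in 10, against 83.9% of all rows too low to be tested. With no filter, 6 of the 11 were called (among them CACNA1H and KCNJ12 higher, KCNE1 and SCN1A lower) and ANO1, GRIN2A, KCND1, KCNJ16 and SCN3B were not, where limma called 91.8% of all 1630 rows. That share takes in the higher rows too and is no measure for low rows alone. By subunit type, 5 of the 23 genes encode auxiliary subunits (CACNB2, CACNG4, KCNE1, KCNE4 and SCN3B), 2 marked up and 3 down in the authors' deposited table. Of the other 18, 5 were marked up and 13 down, where 59.7% of all rows were down.

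The deposited fold and the ratio of the deposited values were not the same quantity for every channel gene. Among the 22 with both means above 0, the log2 mean ratio stood more than 1 away from the deposited log2 fold (authors' deposited table) in 3, KCND1 (2.02 above), ANO1 (1.51 below) and TRPM2 (1.08 above). Such a gap was seen in 3.67% of 1582 rows. The other 19 are nearer the line of equal values in the plot of these scales. No source used here says how the authors computed the fold.

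**Figure D4:**
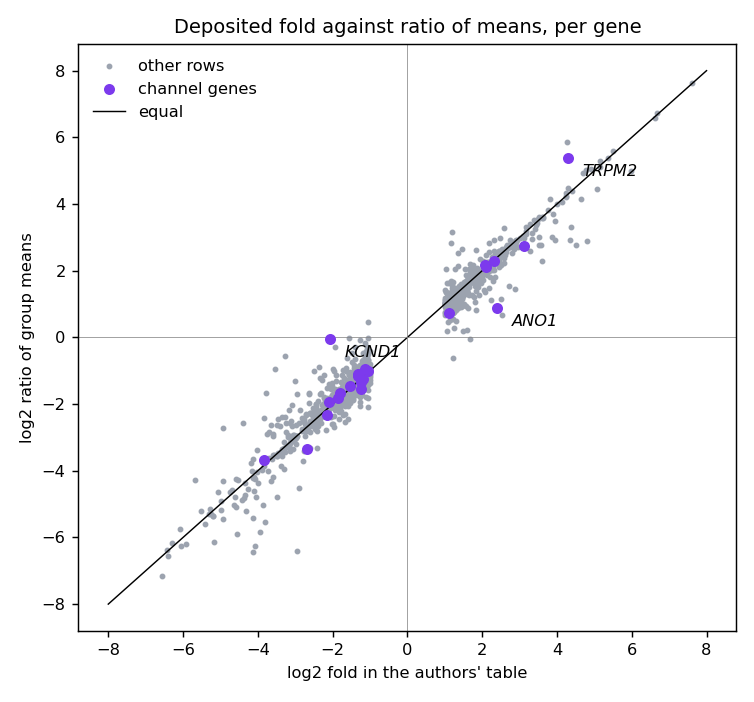
Log2 fold in the authors' deposited table (horizontal axis) against the log2 ratio of group means computed from the deposited values (vertical axis), 1 point per gene, for 22 channel genes (purple) and all other rows with both means above 0 (grey). KCND1 lies near no change on the vertical axis (−0.04) while its deposited log2 fold is −2.07.

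Channels outside these prefixes, channel partners, ion pumps and calcium-signalling genes were set in 4 lists of 226 genes in all, of which 20 have a row and 13 were tested, 5 called higher and 7 lower. The same rule called 40.6% of all rows tested higher and 57.3% lower, so these counts set no list apart. Of 68 other channel genes, 7 have a row, 5 marked down and 2 up in the authors' deposited table. The 3 tested all fell. The inositol trisphosphate receptor ITPR1, a calcium release channel of the endoplasmic reticulum, had values of 31.80, 34.26 and 30.24 in shControl and 14.56, 14.07 and 12.84 in shCREPT. Its mean was 2.32-fold lower (log2 change of −1.16 ± 0.09 SE, limma adjusted p = 3.15e-05). Its relative ITPR2 went from 5.79 ± 0.274 to 2.43 ± 0.298 (SD, n = 3), 2.38-fold lower (limma adjusted p = 7.22e-05). After rescaling both were still called, with log2 changes of −0.32 and −0.29. The mechanically gated channel relative TMEM63C was 2.09-fold lower (limma adjusted p = 0.00538), and its call was lost after rescaling (−0.16, limma adjusted p = 0.496).

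**Figure D5:**
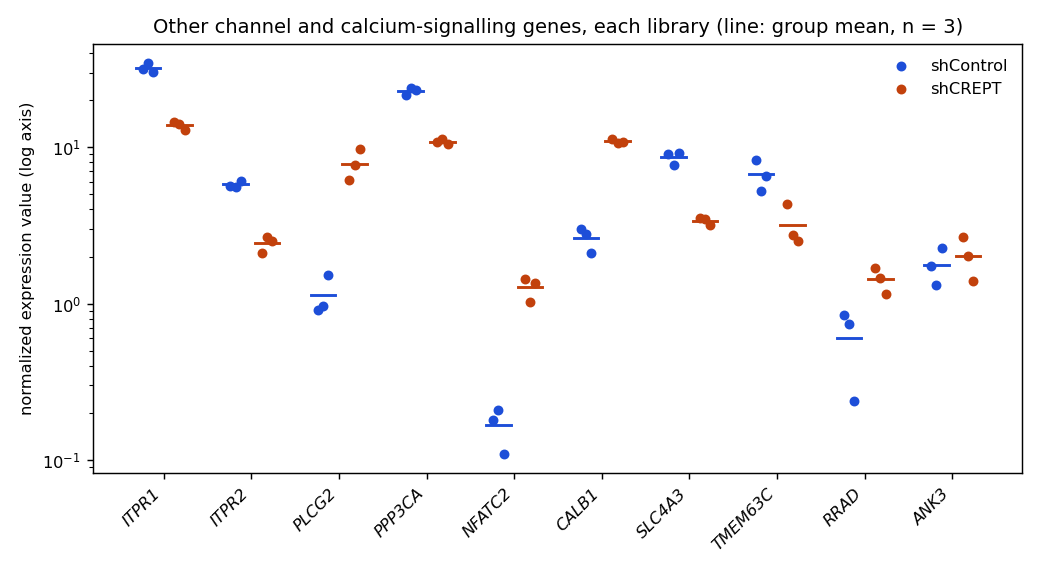
Normalized expression value (log axis) of 10 tested genes from the 4 lists in each shControl and shCREPT library, with a line at each group mean (n = 3). ITPR1, ITPR2, PPP3CA, SLC4A3 and TMEM63C are lower in shCREPT, PLCG2, NFATC2, CALB1 and RRAD are higher, and the groups of ANK3 overlap.

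All 7 listed genes of the 45 for calcium signalling were tested, with 4 rises and 3 falls. Of all rows tested, 40.6% were called higher and 57.3% lower. The calcium-buffering protein CALB1 went from 2.62 ± 0.454 to 10.9 ± 0.38 (SD, n = 3), and its relative CALB2 was listed at 0 in all shControl libraries and at 1.73, 1.53 and 1.19. PLCG2, a phospholipase that makes inositol trisphosphate, was 6.90-fold higher with a log2 change of 2.04 ± 0.18 (SE, by limma with adjusted p = 4.85e-05), and NFATC2, a transcription factor switched on by calcineurin, was 7.62-fold higher. The calcineurin catalytic subunit PPP3CA was 2.10-fold lower, at 10.9 ± 0.395 against 22.8 ± 1.08 (SD, n = 3), a call lost after rescaling (−0.18, limma adjusted p = 0.0914). The calcineurin regulator RCAN1 and the calcium-binding protein S100B also fell, with log2 changes of −3.27 and −1.75. PLCG2, NFATC2 and PPP3CA fall outside the naming rule and were added once their values had been seen.

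The remaining lists gave few rows. Of 49 pumps and exchangers, 4 have a row and the 1 tested, the chloride and bicarbonate exchanger SLC4A3, fell 2.55-fold (log2 change of −1.13 ± 0.10 SE, limma adjusted p = 4.28e-05). Of 64 channel partners, 2 have a row. RRAD, a small GTPase that restrains L-type calcium channels, rose from 0.607 ± 0.321 to 1.44 ± 0.271 (SD, n = 3; limma adjusted p = 0.0112). ANK3, which anchors sodium and potassium channels, had 1.74, 1.31 and 2.27 in shControl and 2.65, 2.03 and 1.40 in shCREPT. Its groups overlapped and it did not pass (log2 change of 0.12 ± 0.19 SE, limma adjusted p = 0.557), although it is marked up in the authors' deposited table.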

How the data were processed

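Total RNA of 6 U87MG libraries, 3 per group, was sequenced. Per the labels' protocols, libraries were made with NEBNext Ultra reagents. Per the submitters' processing notes, the build was GRCh38 and the tools HISAT2 and HTSeq (versions and roles not stated). The authors deposited 1 table of selected genes: per the file headers it holds normalized signal values with 2 decimals, the authors' p-value and adjusted p-value, and their fold change both as a ratio and in log2. No source used here gives the normalization method, depth is unknown, and no count test was run.

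Values were transformed as log2(value + 1), which understates changes of low genes. The 1184 rows that reached 1 in 3 or more libraries were fitted with limma 3.58.1 in R 4.3.3 without covariates, adjusted by Benjamini-Hochberg over all rows tested (threshold 0.05). An exact permutation test of 3 against 3 cannot go below a two-sided p of 0.1. On data simulated for 1184 genes, 984 of them unchanged, the fit called 85% of changes of 1 (log2), 97% of changes of 2 and 0.508% of unchanged genes. In the deposited values 97.9% of rows tested were called. The Benjamini-Hochberg cutoff depends on that share, so the simulated rates need not hold for these data. Coordinates came from GENCODE v29 (GRCh38), where all 23 channel genes matched, and promoters from RefSeq (GRCh38.p14). Any pair of libraries differed in at least 96% of rows. Genes named were the channel genes, with library values by rule for a higher group mean of at least 5 (6 genes) and for the rest added after their values were seen, and up to 4 tested genes with the smallest adjusted p per list. Some genes are not reported here. Members and lists were chosen with earlier results of these data known. Python 3.11.15, pandas 2.3.3, numpy 2.4.6 and matplotlib 3.10.9 were used for the rest.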

Additional observations from a re-analysis of the deposited data

How the results depend on the processing

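The 12 tested channel genes kept their direction in every setting that tested them. Their calls held with a pseudocount of 0.1 or 5, no filter, the trend and robust options, the replicate block and each library left out in turn. Calls were lost after median-of-ratios rescaling (KCNJ8, KCNMA1, P2RX6 and TRPM4) and quantile normalization (P2RX6). Rescaling thus left 5 channel genes lower, and 371 of all rows. Its factors came from genes picked for a difference, so a call lost under it does not decide whether a gene fell. The minimum of 10 in 3 libraries, which tests fewer genes, left KCNE4, TRPC4 and TRPM4 (3 lower and 0 higher by limma, a split the filter fixed, since none of the higher channel genes reaches that level), gave 214 rows higher and 271 lower, and left 1 list gene higher and 3 lower. No filter, which tests more genes, gave 5 channel genes higher and 13 lower of 23, and 8 list genes higher and 9 lower of 20. Over all 1630 rows it gave 610 higher and 887 lower. The median log2 change of the channel genes was −1.09 and −0.54 with pseudocounts of 0.1 and 5, −0.47 with no filter (23 genes), −1.11 with the stricter filter (3 genes), −0.19 after rescaling and −0.73 after quantile normalization. It ran from −0.97 to −0.89 with 1 library left out. ANK3, not called, was −0.03 without shCREPT replicate 1 and −0.00 without shControl replicate 2 (up to 0.28 with another library left out), and was called after rescaling (0.69, limma adjusted p = 0.0152). The pairing check found no shared deviation of libraries with the same number (r = −0.109, 0.018 and −0.179 across genes), and the replicate block gave 9 channel genes lower and 3 higher, 677 and 479 over all rows. Rows tested were kept when a library was left out. With depth unknown, no limit from counting can be given.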

Other observations

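Several genes of the 4 lists were too low to be tested and are given as values. The irritant-sensing cation channel TRPA1 had 0.02, 0.03 and 0.05 in shControl and 0.17, 0.27 and 0.21 in shCREPT. The sodium and proton exchanger SLC9A2 had 0.09, 0.04 and 0.03 in shControl and 0.23, 0.14 and 0.28 in shCREPT. The gastric proton pump subunit ATP4A and the chloride channel BEST1 were lower in every shCREPT library, with means of 0.0733 against 0.237 and 0.237 against 0.757. The groups overlapped for the calcium release channel RYR2 (0.65, 0.38 and 0.45 in shControl, 0.39, 0.20 and 0.49 in shCREPT) and for the tweety family gene TTYH2 (0.38, 0.04 and 0.88 against 1.02, 0.46 and 1.21).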
